A study of Mus musculus with 9 samples.

Results

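The 9 genes described here encode transcription factors that specify and maintain the hepatocyte, and they were chosen by symbol, with earlier results of these data known. They are Hnf4a, Foxa1, Foxa2, Foxa3, Cebpa, Cebpb, Onecut1, Prox1 and Nr5a2, out of 55335 genes listed by Ensembl identifier. All 9 had a mean FPKM of at least 1 (fragments scaled to transcript length and library size, the unit the authors deposited) and were therefore among the 6755 genes tested. The RNA came from whole livers of male B6D2F2 offspring at 20 weeks of age, taken after a 4 h fast, with 3 separate mice in each of 3 groups. In the NC-chow group (mice 1, 5 and 6) the offspring were conceived naturally and carried by their own dams. In the IVF-chow group (mice 2, 3 and 4) embryos made by in vitro fertilization were transferred fresh, and in the FET-chow group (mice 2, 3 and 4) such embryos were slow-frozen and thawed before transfer. The embryos for transfer came from B6D2F1/J parents and all offspring ate chow, but the IVF-chow and FET-chow embryos were carried by ICR recipients, so that the recipient strain cannot be told apart from the conception method in any comparison with NC-chow. Litters are not given in the labels, and a p-value here measures the spread between these mice.

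Hepatocyte identity is held by a network of factors that bind the enhancers of liver genes together and also each other's genes. HNF4A, a nuclear receptor, sits at the centre of this network, the FOXA proteins open chromatin as pioneer factors, and the C/EBP proteins are leucine zipper factors that drive metabolic and acute phase genes. ONECUT1 (also called HNF6), the homeobox protein PROX1 and the nuclear receptor NR5A2 (also called LRH-1) tune the network during liver development and in bile acid and lipid metabolism.

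Upstream sequences of both Hnf4a starts and of Foxa2 are shown because the Hnf4a value joins RNA from 2 start sites and because Foxa2 was the member whose 95% intervals, in FPKM as deposited, excluded 0 in both FET-chow comparisons. Hnf4a has an upstream start, known as P2 and used in fetal liver and pancreas, and a downstream start, known as P1 and used in adult hepatocytes. The sequences are from RefSeq (GRCm38.p6) and cover the 250 bases before a start, without the bases that lie in exons annotated by GENCODE vM21. The first is chr2:163506607-163506807 on the plus strand, the second chr2:163546943-163547154 on the plus strand, and the last chr2:148046970-148047219, read on the minus strand. Capitals mark the ONECUT core letters ATCAAT, searched on both strands.
Hnf4a upstream start: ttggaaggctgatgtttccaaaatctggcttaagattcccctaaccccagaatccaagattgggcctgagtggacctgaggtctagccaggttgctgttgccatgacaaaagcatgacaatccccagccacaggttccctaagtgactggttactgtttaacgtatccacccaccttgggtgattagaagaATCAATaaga
Hnf4a downstream start: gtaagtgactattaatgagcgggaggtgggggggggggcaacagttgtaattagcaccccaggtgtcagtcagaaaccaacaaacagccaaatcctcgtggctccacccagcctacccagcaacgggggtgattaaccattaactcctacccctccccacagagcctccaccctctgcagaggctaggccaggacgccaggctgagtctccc
Foxa2 outermost start: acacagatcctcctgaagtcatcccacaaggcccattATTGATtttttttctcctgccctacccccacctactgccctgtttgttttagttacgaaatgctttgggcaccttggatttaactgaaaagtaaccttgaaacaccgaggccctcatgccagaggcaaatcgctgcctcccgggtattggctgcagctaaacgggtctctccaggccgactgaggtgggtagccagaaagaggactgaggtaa
The match begins 59 bases before the upstream Hnf4a start and, on the opposite strand, 213 bases before the outermost Foxa2 start. RefSeq gave 14 such windows for the 9 members, and 4 of them held a match to 1 of 5 motifs. The other matches were the forkhead core TGTTTAC in the Foxa1 window, from 141 bases before the start, and the C/EBP core TTGCNNAA in a Nr5a2 window, from 243 bases before it. The same letters occur in 6.72% (ONECUT), 3.17% (forkhead) and 9.56% (C/EBP) of the 32851 windows of that length in the RefSeq table. The NR5A2 letters CAAGGNCA (5.53% of windows) and the HNF4 letters CAAAGTCCA (0.384%) were in no member window. A match is a run of letters and not a measured binding site.

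The libraries differed in depth and in makeup, which bears on every value below. The depth, read from the spacing of low FPKM values, was an estimated 6520000 to 13130000 fragments in NC-chow, 3820000 to 8290000 in IVF-chow and 1990000 to 2880000 in FET-chow mice, so that each FET-chow library was shallower than each of the others. These estimates cover counting error only. Nuclear protein-coding genes took between 4.4% (IVF-chow mouse 2 and FET-chow mouse 4) and 29.3% (IVF-chow mouse 4) of the summed FPKM of a library, and mitochondrial genes took 27.6% to 55.3%. Of the 6755 genes tested, FET-chow mouse 2 lacked a value above 0 for 20.3% and FET-chow mouse 4 for 14.5%, against 2.28% to 5.43% in the other 7 libraries. A second scale is therefore given, the coding-scaled level, which is the FPKM of a gene after scaling each library so that its nuclear protein-coding genes sum to the same total. The S numbers of the libraries in the labels run from 71 to 76 for the mice born after embryo transfer, and of the NC-chow mice mouse 1 is close to them, with 67, while mice 5 and 6 lie far from them, so values without NC-chow mice 5 and 6 are given where they matter. The labels do not say what these numbers record. In whole liver, fewer cells of a type and less RNA per cell cannot be told apart, and this holds for each member below.

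By mean FPKM over the 9 mice, the order was Hnf4a (23.1), Cebpb (16.0), Cebpa (15.0), Foxa3 (9.89), Foxa2 (3.71), Prox1 (2.21), Foxa1 (1.49), Onecut1 (1.44) and Nr5a2 (1.09). Among neighbours in that order, Foxa3 exceeded Foxa2 in 9 of 9 mice and Hnf4a exceeded Cebpb in 8 of 9. The other neighbours changed places from mouse to mouse, and Cebpb exceeded Cebpa in 4 of 9 mice and Onecut1 exceeded Nr5a2 in 4 of 9. Hnf4a, Cebpa, Cebpb and Foxa3 had a median rank between the 95th and 97.6th percentile of nuclear protein-coding genes in their libraries, and the other 5 members had median ranks from the 75.6th to the 91.1st percentile.

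**Figure D1:**
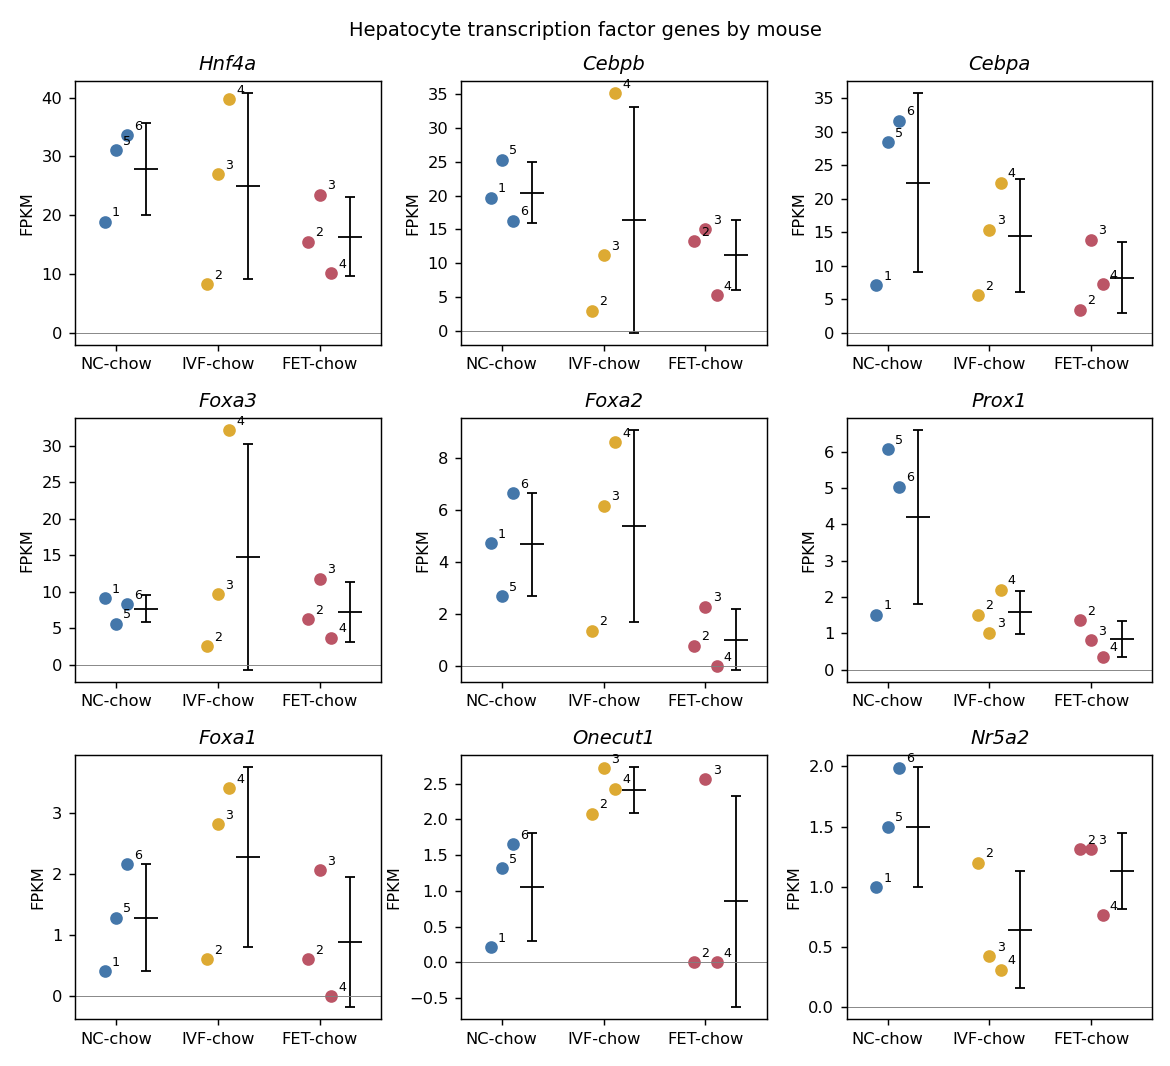
FPKM (y axes) of the 9 members in each mouse, grouped by conception (x axes) and numbered by mouse, with the group mean and SD (n = 3) as a black dash and bar beside the points. Hnf4a spans 8.26 to 39.7 FPKM, Foxa2 and Prox1 are lower in all 3 FET-chow mice than in any NC-chow mouse, and Onecut1 is listed at 0 in FET-chow mice 2 and 4.

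Hnf4a (ENSMUSG00000017950, chromosome 2, 163506808 to 163572910 on the plus strand of GRCm38) was the most abundant member. Its FPKM was 18.9, 31.1 and 33.6 in NC-chow mice 1, 5 and 6, 8.26, 27 and 39.7 in mice 2, 3 and 4 of the IVF-chow group, and 15.5, 23.5 and 10.1 in mice 2, 3 and 4 of the FET-chow group. The groups overlapped, with the lowest and the highest value of all mice both in the IVF-chow group. The group means were 27.9 ± 7.88, 25.0 ± 15.8 and 16.4 ± 6.73 FPKM (SD, n = 3 each). The log2 fold change, on log2(FPKM + 1), was -0.77 in FET-chow against NC-chow (95% interval -2.67 to 1.14, adjusted p = 0.789 in limma).

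On the coding-scaled level most of this spread in Hnf4a was gone. The levels were 202, 225 and 215 in NC-chow, 211, 247 and 172 in IVF-chow and 170, 182 and 223 in FET-chow mice. The highest mouse exceeded the lowest 1.46-fold on this scale and 4.8-fold in FPKM. The coefficient of variation over the 9 mice was 12.8% in place of 46.7%, while the median over 5724 tested nuclear protein-coding genes was 52.8% in place of 67.7%. By this coefficient Hnf4a ranked the fourth lowest of those 5724 genes, and 0.0524% of them varied less. These genes include low ones that rest on few fragments, and Hnf4a was not ranked among genes of like abundance. In the fit rescaled to the coding genes, FET-chow minus NC-chow was -0.16 on the log2 scale (95% interval -0.81 to 0.50, adjusted p = 0.815 in limma). That fit gave -0.04 for IVF-chow minus NC-chow (-0.69 to 0.62, adjusted p = 0.995 in limma) and -0.12 for FET-chow minus IVF-chow (-0.77 to 0.53, adjusted p = 0.921 in limma). Each Hnf4a value rests on at least 141 estimated fragments. The antisense gene Hnf4aos lies within the span of Hnf4a, shares no exon base with it and reached at most 5.12 FPKM.

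**Figure D2:**
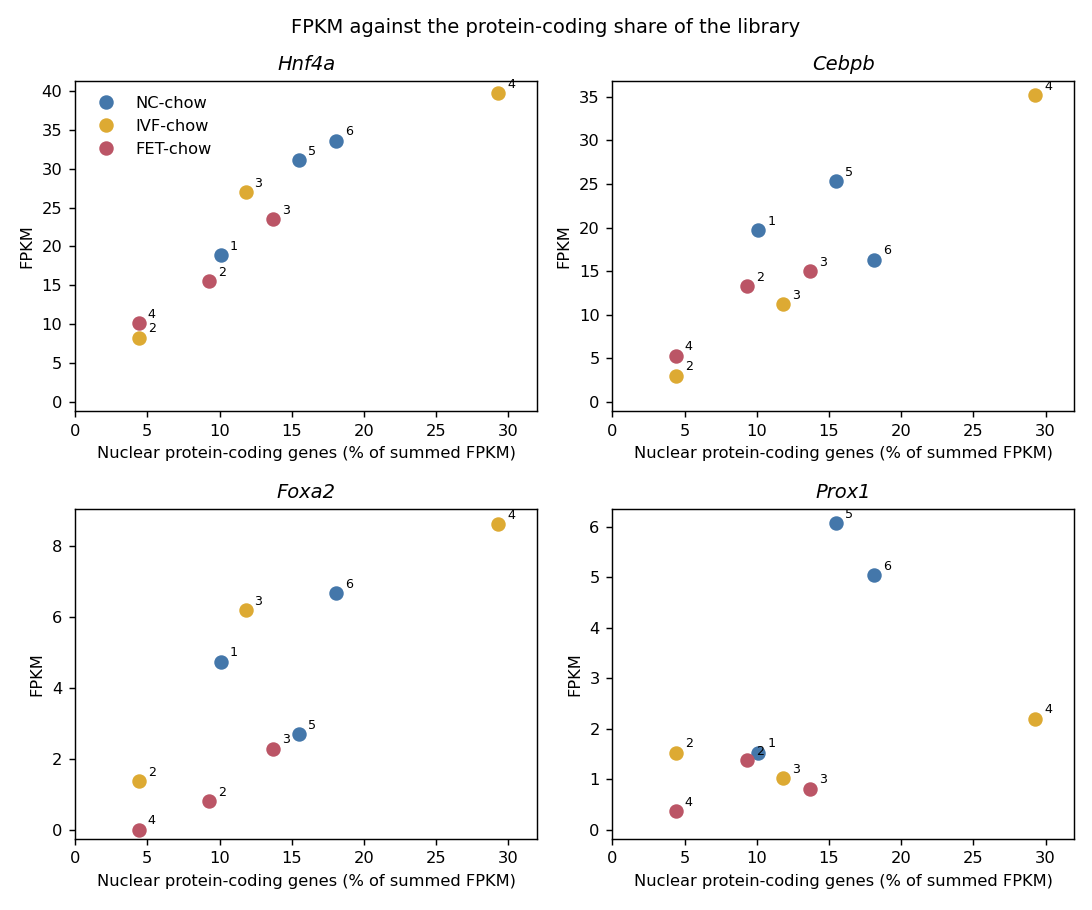
FPKM of Hnf4a, Cebpb, Foxa2 and Prox1 (y axes) against the percent of the summed FPKM that nuclear protein-coding genes took in the same library (x axes), 1 point a mouse, coloured by group and numbered by mouse. Hnf4a climbs with that percent from 8.26 FPKM at 4.4% to 39.7 at 29.3%, while for Foxa2 the 3 FET-chow mice lie low for their percent and Prox1 is highest in NC-chow mice 5 and 6.

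Among the FOXA genes, whose products share the forkhead DNA-binding domain, Foxa3 was the most abundant in each mouse. Foxa3 (ENSMUSG00000040891, chromosome 7, 19013284 to 19023538, minus strand) is the member of the family that persists most in adult liver. Its FPKM was 9.08, 5.61 and 8.30 in NC-chow, 2.54, 9.62 and 32.1 in IVF-chow and 6.21, 11.8 and 3.72 in FET-chow mice, with the extremes again in IVF-chow mice 2 and 4. Its log2 fold change was -0.17 in FET-chow against NC-chow (95% interval -1.86 to 1.52, adjusted p = 0.959 in limma) and was 0.36 after rescaling to the coding genes (-0.49 to 1.22, adjusted p = 0.66 in limma), so its direction is not settled by these data.

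Foxa2 (ENSMUSG00000037025, chromosome 2, 148042877 to 148046969, minus strand), which is required with Foxa1 for the onset of liver development and in the adult takes part in the fasting response, had lower coding-scaled levels in the 3 FET-chow mice than in the other 6. Its FPKM was 4.74, 2.70 and 6.67 in NC-chow, 1.37, 6.19 and 8.63 in IVF-chow and 0.797 and 2.29 in FET-chow mice 2 and 3, and it was listed at 0 in FET-chow mouse 4. All FET-chow values lay below all NC-chow values, and IVF-chow mouse 2 lay among the FET-chow mice. On the coding-scaled level Foxa2 was 50.5, 19.6 and 42.6 in NC-chow, 35.0, 56.6 and 37.5 in IVF-chow and 8.73, 17.7 and 0 in FET-chow mice. The narrowest gap on that scale was between NC-chow mouse 5 (19.6) and FET-chow mouse 3 (17.7).

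For Foxa2 the log2 fold change was -1.60 in FET-chow against NC-chow (SE 0.67, 95% interval -2.95 to -0.24, unadjusted p = 0.0219, adjusted p = 0.334 in limma) and also -1.60 against IVF-chow (SE 0.67, -2.95 to -0.25, unadjusted p = 0.0217, adjusted p = 1 in limma). The 2 comparisons share the FET-chow mice. Rescaled to the coding genes, the values were -1.40 (-2.38 to -0.42, unadjusted p = 0.00987, adjusted p = 0.199 in limma) and -1.60 (-2.58 to -0.62, unadjusted p = 0.00461, adjusted p = 0.333 in limma). The difference therefore did not pass the threshold over all genes on either scale. Few fragments stand behind it, an estimated 3.8 and 15.0 in FET-chow mice 2 and 3 against 26.9 to 207.6 in the other groups, and 3 fragments in FET-chow mouse 4 would have read as 0.440 FPKM or a coding-scaled level of 9.68. Without FET-chow mouse 4 the log2 fold change against NC-chow was -1.17 (unadjusted p = 0.138 in limma), without NC-chow mouse 6 it was -1.35 (unadjusted p = 0.0972 in limma) and without NC-chow mouse 1 it was -1.56 (unadjusted p = 0.0539 in limma). Against IVF-chow it was -1.17 without FET-chow mouse 4 (unadjusted p = 0.137 in limma), -1.40 without IVF-chow mouse 3 (0.083) and -1.19 without IVF-chow mouse 4 (0.1), and the unadjusted p was 0.0639 in limma when only these 2 groups were fitted. Against NC-chow mouse 1 alone the log2 fold change was -1.67. Values against this single NC-chow mouse are given here and below as effect sizes only, with no test read from them.

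Foxa1 (ENSMUSG00000035451, chromosome 12, 57540628 to 57546916, minus strand), the early partner of Foxa2, was the least abundant of the family. Its FPKM was 0.414, 1.29 and 2.17 in NC-chow, 0.612, 2.82 and 3.41 in IVF-chow and 0.605, 2.07 and 0 in FET-chow mice. The groups overlapped in FPKM, while on the coding-scaled level the IVF-chow mice (15.6, 25.8 and 14.8) lay above the NC-chow mice (4.41, 9.33 and 13.9). The log2 fold change in IVF-chow against NC-chow was 0.47 (95% interval -0.75 to 1.69, adjusted p = 1 in limma) and 0.59 after rescaling (-0.32 to 1.51, adjusted p = 0.938 in limma). As deposited it was 0.16 without NC-chow mouse 1, 0.30 without IVF-chow mouse 3, 0.19 without IVF-chow mouse 4, 0.92 without IVF-chow mouse 2 and 0.74 without NC-chow mouse 6. Against NC-chow mouse 1 alone it was 1.09, a value with no test. The value of 0 in FET-chow mouse 4 compares with 0.313 FPKM for 3 fragments.

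The makeup of the family was compared within each library, where the scaling between libraries cancels. Foxa2 made up 33.3%, 28.2% and 38.9% of the summed Foxa1, Foxa2 and Foxa3 FPKM in NC-chow, 30.3%, 33.2% and 19.5% in IVF-chow and 10.5%, 14.2% and 0% in FET-chow mice. All 3 FET-chow shares lay below the other 6. Foxa3 made up 63.8%, 58.4% and 48.4% in NC-chow, 56.1%, 51.6% and 72.7% in IVF-chow and 81.6%, 73% and 100% in FET-chow mice. These shares follow from the FPKM given above and were not tested separately.

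**Figure D3:**
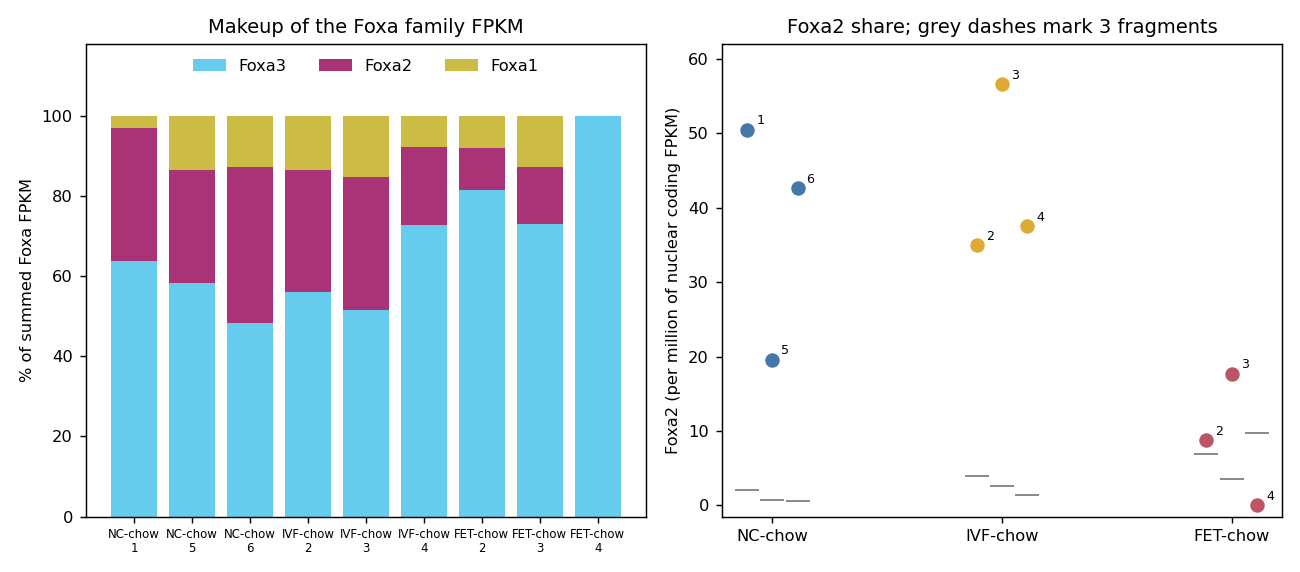
Left, share of Foxa1, Foxa2 and Foxa3 in their summed FPKM (y axis, %) in each mouse (x axis). Right, the coding-scaled level of Foxa2 (y axis, scaled to nuclear coding FPKM) by group (x axis), numbered by mouse, with a grey dash at the level that 3 fragments would give in that library. Foxa2 takes 0% to 14.2% of the family in FET-chow mice and 19.5% to 38.9% in the others, and in FET-chow mouse 2 its level of 8.73 is close to the level of 3 fragments, 6.96.

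The C/EBP pair were expressed at similar levels. Cebpa (ENSMUSG00000034957, chromosome 7, 35119293 to 35121928, plus strand), which restrains hepatocyte proliferation and supports gluconeogenesis, had an FPKM of 7.10, 28.5 and 31.7 in NC-chow, 5.57, 15.4 and 22.4 in IVF-chow and 3.44, 13.9 and 7.20 in FET-chow mice. NC-chow mouse 1 lay with the FET-chow mice, apart from the other NC-chow mice. Cebpa differed between FET-chow and NC-chow by a log2 fold change of -1.28 (95% interval -3.09 to 0.52, adjusted p = 0.593 in limma) and -0.69 after rescaling (-1.86 to 0.48, adjusted p = 0.53 in limma). As deposited, the log2 fold change was -1.93 without NC-chow mouse 1 and -1.72 without FET-chow mouse 3. It was -0.85 without FET-chow mouse 2, -0.92 without NC-chow mouse 6 and -1.0 without NC-chow mouse 5. Against NC-chow mouse 1 alone it was 0.01, a value with no test.

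Cebpb (ENSMUSG00000056501, chromosome 2, 167688915 to 167690418, plus strand), which is induced in the acute phase response and in fasting, had an FPKM of 19.7, 25.3 and 16.3 in NC-chow, 2.99, 11.2 and 35.2 in IVF-chow and 13.3, 15.0 and 5.28 in FET-chow mice. All FET-chow values were below all NC-chow values in FPKM. On the coding-scaled level the 2 groups overlapped, with 210, 183 and 104 in NC-chow mice and all 3 FET-chow mice, the highest at 146, within that range. The log2 fold change was -0.90 (95% interval -2.74 to 0.93, adjusted p = 0.738 in limma) and -0.32 after rescaling (-1.15 to 0.50, adjusted p = 0.689 in limma). An exon of Tmem189 on the other strand shares 312 bases with Cebpb. Tmem189 had an FPKM of 2.35, 3.24 and 4.63 in NC-chow, 0.330, 1.28 and 2.90 in IVF-chow and 1.98, 1.19 and 0 in FET-chow mice, so that its FET-chow values, like those of Cebpb, lay below its NC-chow values. Its part in the Cebpb values was not tested.

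The balance of the C/EBP pair was taken as the log2 ratio of (Cebpb FPKM + 1) to (Cebpa FPKM + 1) in each library. It was 1.36, -0.17 and -0.92 in NC-chow, -0.72, -0.42 and 0.63 in IVF-chow and 1.69, 0.11 and -0.38 in FET-chow mice. The groups overlapped throughout. The differences of 0.38 (FET-chow minus NC-chow), -0.26 (IVF-chow minus NC-chow) and 0.64 (FET-chow minus IVF-chow) had two-sided exact permutation p-values of 0.6, 0.7 and 0.5, each 0.7 after adjustment over the 3 tests. With 3 mice against 3 the smallest p this test can give is 0.1.

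Onecut1 (ENSMUSG00000043013, chromosome 9, 74861921 to 74891781, plus strand), which acts in bile duct formation and in the sex-dependent control of liver genes by growth hormone, had an FPKM of 0.209, 1.32 and 1.65 in NC-chow and 2.08, 2.72 and 2.43 in IVF-chow mice. It was 2.56 in FET-chow mouse 3 and listed at 0 in FET-chow mice 2 and 4, where 3 fragments would have read as 0.367 and 0.253 FPKM. All IVF-chow values lay above all NC-chow values. In IVF-chow against NC-chow its log2 fold change was 0.80 (95% interval -0.41 to 2.01, adjusted p = 1 in limma) and 1.07 after rescaling (-0.14 to 2.29, adjusted p = 0.914 in limma). It was 1.25 under quantile normalization (0.17 to 2.34, unadjusted p = 0.0278, adjusted p = 0.601 in limma), and 0.46 without NC-chow mouse 1 (unadjusted p = 0.487 in limma). Against NC-chow mouse 1 alone it was 1.49, a value with no test. In FET-chow against IVF-chow it was -1.16 (-2.37 to 0.06, unadjusted p = 0.061, adjusted p = 1 in limma) and -1.31 after rescaling (-2.53 to -0.10, unadjusted p = 0.0368, adjusted p = 0.516 in limma). Without FET-chow mouse 3, the FET-chow mouse with a value above 0, it was -1.77 (unadjusted p = 0.00519, adjusted p = 0.734 in limma). Without FET-chow mouse 2 it was -0.85 (unadjusted p = 0.207 in limma), and without FET-chow mouse 4 also -0.85 (0.208). With only these 2 groups fitted, the unadjusted p was 0.0994 in limma. The non-coding gene Gm20649 shares 2171 exonic bases with Onecut1 on the same strand and was listed at 3.01 FPKM in NC-chow mouse 1, the mouse with the lowest Onecut1 value among those above 0, and at 0 in the other 8. How fragments in the shared exons were divided is not known, so the Onecut1 value of NC-chow mouse 1 and the order of the IVF-chow and NC-chow groups are uncertain.

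Prox1 (ENSMUSG00000010175, chromosome 1, 190118035 to 190170714, minus strand), a co-repressor of HNF4A and NR5A2 that is also a marker of lymphatic endothelium, had its 2 highest FPKM values in NC-chow mice. Its FPKM was 1.52, 6.07 and 5.04 in NC-chow, 1.52, 1.02 and 2.20 in IVF-chow and 1.37, 0.813 and 0.362 in FET-chow mice. The FET-chow and NC-chow values did not overlap, and NC-chow mouse 1 was close to FET-chow mouse 2. The coding-scaled level was 16.2, 43.9 and 32.2 in NC-chow, 38.8, 9.29 and 9.57 in IVF-chow and 15.0, 6.29 and 7.97 in FET-chow mice, also without overlap between FET-chow and NC-chow. The log2 fold change in FET-chow against NC-chow was -1.40 (SE 0.60, 95% interval -2.61 to -0.19, unadjusted p = 0.0245, adjusted p = 0.341 in limma) and -1.01 after rescaling (-2.01 to -0.02, unadjusted p = 0.0467, adjusted p = 0.294 in limma). It was -1.86 when NC-chow mouse 1 was left out (unadjusted p = 0.0068, adjusted p = 0.165 in limma) and -0.49 against that single mouse, the latter with no test. It was -1.12 without NC-chow mouse 5 (unadjusted p = 0.141 in limma), -1.23 without NC-chow mouse 6 (0.101), -1.40 without FET-chow mouse 3 (0.0545) and -1.20 without FET-chow mouse 4 (0.0864), and -0.99 under quantile normalization (0.0689). Prox1 rested on an estimated 8.7 to 22.9 fragments in FET-chow and 83.3 to 597.7 in NC-chow mice. The antisense gene Prox1os, which shares 133 exonic bases with Prox1, had an FPKM of 1.66, 6.41 and 4.32 in NC-chow, 0.790, 3.84 and 4.86 in IVF-chow and 0, 1.31 and 0 in FET-chow mice, and whether strand was used in counting is not given in the sources used here.

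Nr5a2 (ENSMUSG00000026398, chromosome 1, 136842571 to 136960448, minus strand), which activates bile acid synthesis genes, had the lowest mean FPKM of the members, although on the coding-scaled level its mean of 12.4 was above the 11.8 of Foxa1. Its FPKM was 0.995, 1.5 and 1.99 in NC-chow, 1.20, 0.421 and 0.310 in IVF-chow and 1.31, 1.31 and 0.763 in FET-chow mice. Its coding-scaled level was even in NC-chow (10.6, 10.8 and 12.7) and FET-chow mice (14.3, 10.1 and 16.8) and spread over 30.6, 3.85 and 1.35 in IVF-chow mice. The groups overlapped. The log2 fold change in FET-chow against NC-chow was -0.22 (95% interval -1.37 to 0.92, adjusted p = 0.917 in limma) but 0.14 after rescaling, 0.09 under median-ratio scaling and 0.28 under quantile normalization. In IVF-chow against NC-chow it was -0.62 (-1.77 to 0.53, adjusted p = 1 in limma), but -0.21 after rescaling, -0.16 under median-ratio scaling and -0.13 under quantile normalization. Against NC-chow mouse 1 alone the IVF-chow value was -0.32, with no test.

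Counted together, 0 of the 9 members passed an adjusted p under 0.05 in limma in FET-chow against NC-chow, IVF-chow against NC-chow or FET-chow against IVF-chow, where 0.237%, 0.0592% and 0.0888% of all genes tested did. At an unadjusted p under 0.05 in limma, 2 members (Foxa2 and Prox1, both lower) stood out in FET-chow against NC-chow, where 12.0% of all genes did. That count of 2 fell to 0 when either mouse 6 of the NC-chow group or mouse 4 of the FET-chow group was left out, and to 1 when mouse 1 or 5 of the NC-chow group or mouse 3 of the FET-chow group was. Of the cases that left 1 member, Foxa2 was the one lost when mouse 1 was omitted and Prox1 in the rest. None did in IVF-chow against NC-chow (4.07% of all genes) and 1 (Foxa2, lower) did in FET-chow against IVF-chow (4.01%). The count of 1 in FET-chow against IVF-chow was 0 when mouse 3 or 4 of the IVF-chow group or mouse 4 of the FET-chow group was left out, and 2 when mouse 2 of the IVF-chow group or mouse 3 of the FET-chow group was. It was 2 after rescaling (9.43% of all genes) and 2 under median-ratio scaling (9.25%). With a pseudocount of 0.1 it was 2, and with only these 2 groups fitted it was 0. In IVF-chow against NC-chow the count was 1 once NC-chow mouse 1 was left out and 1 (Onecut1) under quantile normalization (7.86% of all genes). In FET-chow against NC-chow the count stayed 2 after rescaling (16.7% of all genes). Shares over all genes are not given for counts with a mouse left out, with a pseudocount of 0.1 or with only 2 groups fitted. Those counts therefore have no background. Groups that did not overlap in FPKM were seen for 3 members in FET-chow against NC-chow (Foxa2, Cebpb and Prox1, background 19.0%), for 1 in IVF-chow against NC-chow (Onecut1, 6.23%) and for none in FET-chow against IVF-chow (3.83%). On the coding-scaled level they were seen for 2 (Foxa2 and Prox1, background 21.5%), 2 (Foxa1 and Onecut1, both higher, 16.2%) and 1 (Foxa2, 12.7%), but the Onecut1 levels of NC-chow mouse 6 and IVF-chow mouse 4 were both 10.6 and differed only beyond the digits given. Each of these counts that stands with a share over all genes lies within 2 members of the number that this share would give for 9 genes. The counts are therefore no result about the members as a group.

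The members' log2 fold changes in FET-chow against NC-chow were negative for 9 of 9, with a median of -0.77, but the median over all genes tested was itself -0.46 and 74.4% of genes were negative. Rescaled to the coding genes, 7 of 9 were negative with a median of -0.24, against -0.06 and 53.4% negative over all genes. Under quantile normalization 5 of 9 were negative, with a median of -0.28, against 49.8% over all genes. In IVF-chow against NC-chow the values ran from -0.91 for Prox1 to 0.80 for Onecut1, and the members' median was -0.36 (5 of 9 negative) against -0.25 and 68.9% negative over all genes, and -0.04 against -0.07 after rescaling. In FET-chow against IVF-chow it was -0.51 (8 of 9 negative) against -0.20 and 65.4% negative over all genes, and -0.44 (7 of 9 negative) against 0.02 and 48.6% after rescaling. The 3 comparisons share groups and are not independent of each other.

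**Figure D4:**
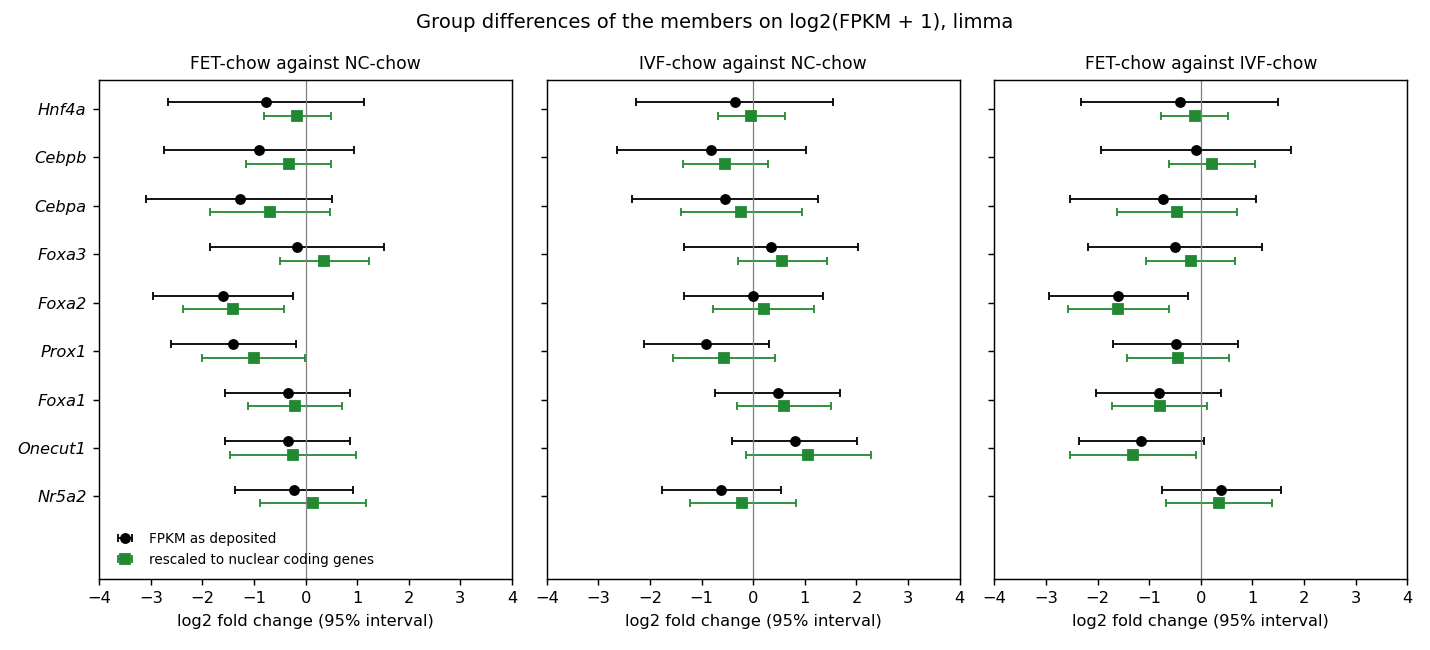
Log2 fold changes on log2(FPKM + 1) from limma (x axes) of the 9 members (y axis) in the 3 comparisons, with 95% intervals, from the FPKM as deposited (black circles) and rescaled to nuclear coding genes (green squares). The intervals exclude 0 on both scales for Foxa2 in both FET-chow comparisons and for Prox1 in FET-chow against NC-chow, and those of Hnf4a shrink from -2.67 to 1.14 to -0.81 to 0.50 in FET-chow against NC-chow when rescaled.

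The rank of each member among the nuclear protein-coding genes of its own library does not depend on scaling, and it was compared in 27 two-sided exact permutation tests, 9 members in 3 comparisons. In 4 of these exact tests the p was 0.1, the smallest this design allows, and the smallest adjusted value was 0.6. The share of all genes tested whose ranks did not overlap was not counted, with all mice or with 1 left out. The following counts of members therefore have no background and are no result about the members as a group. Between FET-chow and NC-chow the ranks of 1 member did not overlap, and this count was 2 to 4 with 1 mouse left out, except 1 without FET-chow mouse 2. Between IVF-chow and NC-chow it was 2, and 4 without mouse 1 of the NC-chow group or mouse 2 or 4 of the IVF-chow group. Between FET-chow and IVF-chow it was 1, and 2 to 4 when mouse 2 or 4 of the IVF-chow group or mouse 2 or 3 of the FET-chow group was omitted. Prox1 was at the 87.8th percentile on average in NC-chow and the 75.4th in FET-chow mice (exact permutation p = 0.1). Foxa2 was at the 91.8th percentile in IVF-chow and the 63.8th in FET-chow mice (exact permutation p = 0.1), and between NC-chow (89.3rd) and FET-chow mice its ranks overlapped (exact permutation p = 0.2). FET-chow mouse 4, listed at 0, took the tied 30th percentile in that mean, and FET-chow mice 2 and 3 were at the 76.6th and 84.7th. The other 2 tests at the smallest p were those of Foxa1 (73.2nd in NC-chow, 84.2nd in IVF-chow) and Onecut1 (69.8th and 86.9th), with higher ranks in IVF-chow mice. Hnf4a was between the 96.9th and 98.1st percentile in all 9 mice.

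Genes whose products join or oppose the members were described from lists, whose counts are to be read against those over all genes tested given above for the same comparisons (in FET-chow against NC-chow 74.4% negative and 12.0% at an unadjusted p under 0.05 in limma, in the other comparisons 4.07% and 4.01% at that p). Of 17 paralogues and partners, 16 matched a gene and 9 were tested, 0 passed the adjusted threshold in limma in any comparison (at an unadjusted p under 0.05, 3 were lower in FET-chow against NC-chow, 1 between IVF-chow and NC-chow and 3 between FET-chow and IVF-chow), and 7 of 9 were negative in FET-chow against NC-chow (median -1.18, after rescaling -0.64). Cebpg, a C/EBP family member without an activation domain, had an FPKM of 2.31, 2.30 and 1.63 in NC-chow, 0.257, 0.586 and 4.49 in IVF-chow and 0.179, 0.0226 and 0.122 in FET-chow mice, and differed by a log2 value of -1.47 between FET-chow and NC-chow (adjusted p = 0.311 in limma). Its FET-chow values lay below all others. Nr0b2 (also called SHP), the repressor that NR5A2 itself induces and that inhibits NR5A2 and HNF4A, had an FPKM of 6.42, 10.2 and 10.9 in NC-chow, 0.706, 0.991 and 2.88 in IVF-chow and 0, 10.6 and 6.40 in FET-chow mice, and its log2 fold change in IVF-chow against NC-chow was -2.08 (adjusted p = 0.647 in limma). The others with the largest differences in FET-chow against NC-chow were Cebpe (log2 fold change -1.86), the orphan receptor gene Nr2f6 (-1.68) and Trib1 (-1.23), whose product promotes the breakdown of C/EBPα, with adjusted p-values from 0.276 to 0.453 in limma.

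Of 55 other liver transcription factors, 43 were tested and none passed the adjusted threshold in FPKM as deposited, although at an unadjusted p under 0.05 in limma 8 of them were lower in FET-chow against NC-chow, 4 were lower in IVF-chow against NC-chow, and 1 was higher and 3 lower in FET-chow against IVF-chow. Their median log2 fold change was -0.50, close to that of all genes, and -0.08 after rescaling. The oxidative stress factor gene Nfe2l2 had an FPKM of 13.5, 35.1 and 37.7 in NC-chow, 1.85, 4.49 and 10.8 in IVF-chow and 3.74, 2.65 and 0.364 in FET-chow mice, and its log2 fold change in FET-chow against NC-chow was -3.25 (adjusted p = 0.0519 in limma) and -2.84 after rescaling (adjusted p = 0.0344 in limma). Nfil3, a leucine zipper repressor, was 2.99, 4.87 and 3.77 FPKM in NC-chow and 0.584, 3.29 and 6.08 in IVF-chow mice and was listed at 0 in all 3 FET-chow mice (adjusted p = 0.0733 in limma, after rescaling 0.0344). These 2 genes were the only factors of the list to pass after rescaling, where 0.266% of all genes tested did. Klf15, which supports gluconeogenesis in fasting (log2 fold change -3.12, adjusted p = 0.0619 in limma), the circadian output factor gene Dbp (-2.86, adjusted p = 0.0505 in limma) and Atf4 of the amino acid response (-2.05, adjusted p = 0.358 in limma) completed the 5 largest. Of 20 co-regulators, 9 were tested, 0 passed and 0 had an unadjusted p under 0.05 in limma in any comparison, and the 5 with the largest differences, Smarca4, Kdm6b, Prmt1, Smarca2 and Hdac3, lay between -0.92 and -0.44 in FET-chow against NC-chow.

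Known target genes were described in the same way, with 0 of each list passing the adjusted threshold in limma in the 3 comparisons. Of 14 HNF4A targets, all tested, 13 were negative in FET-chow against NC-chow (median log2 fold change -1.59, after rescaling 11 negative and -0.96), and at an unadjusted p under 0.05 in limma 2 were lower there, 0 between IVF-chow and NC-chow and 1 between FET-chow and IVF-chow. The largest differences were those of Pklr, the liver pyruvate kinase (-2.22), Cyp8b1, which makes the 12α-hydroxyl group of cholic acid (-2.14), Tat, the tyrosine aminotransferase (-2.08), Apob (-1.76) and Apoa4 (-1.66), with adjusted p-values from 0.258 to 0.529 in limma. Cyp8b1 had an FPKM of 5.18, 19.0 and 16.1 in NC-chow, 0.797, 9.53 and 13.5 in IVF-chow and 3.13, 1.67 and 1.23 in FET-chow mice. All FET-chow values of Cyp8b1 lay below all NC-chow values. Between these groups Hnf4a itself differed by a log2 value of -0.77 in FPKM as deposited, beside the target median of -1.59. After rescaling it was -0.16 for Hnf4a beside -0.96 for the targets. Whether the targets followed Hnf4a was not tested.

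Of 8 FOXA targets, 7 were tested and 7 were negative in FET-chow against NC-chow (median -1.63, after rescaling 7 and -1.0). At an unadjusted p under 0.05 in limma 2 were lower there, 0 between IVF-chow and NC-chow and 1 between FET-chow and IVF-chow. Pck1, which encodes the gluconeogenic enzyme PEPCK and is in the FOXA and the C/EBP list, had an FPKM of 95.2, 174 and 180 in NC-chow, 39.9, 76.9 and 84.6 in IVF-chow and 1.45, 78.3 and 51.7 in FET-chow mice, and differed by a log2 value of -2.74 between FET-chow and NC-chow (adjusted p = 0.325 in limma). FET-chow mouse 2 stood far below the other 8. Igfbp1, a secreted binder of insulin-like growth factors that insulin represses, was 3.99, 4.29 and 2.26 FPKM in NC-chow and 0.807, 3.41 and 14.6 in IVF-chow mice and was listed at 0 in all 3 FET-chow mice (adjusted p = 0.124 in limma). Tat, in 3 of the target lists, was 97.0, 243 and 168 FPKM in NC-chow, 14.6, 40.8 and 89.7 in IVF-chow and 33.1, 38.1 and 38.9 in FET-chow mice, so that all mice of both embryo transfer groups lay below all NC-chow mice. G6pc (-1.62, adjusted p = 0.563 in limma) and Ttr (-1.63, adjusted p = 0.522 in limma) were the other 2 of the 5 largest.

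Of 13 C/EBP targets, all tested, 13 were negative in FET-chow against NC-chow (median -1.56, after rescaling 9 and -0.95), and at an unadjusted p under 0.05 in limma 4 were lower there, 1 between IVF-chow and NC-chow and 0 between FET-chow and IVF-chow. Beside Pck1 and Tat, the named ones are acute phase genes. Apcs was 34.4, 54.3 and 39.7 FPKM in NC-chow, 1.82, 9.28 and 82.4 in IVF-chow and 11.9, 17.5 and 2.02 in FET-chow mice (log2 fold change -2.26, adjusted p = 0.358 in limma). Saa1 (-1.81, adjusted p = 0.352 in limma) and Saa2 (-2.09, adjusted p = 0.274 in limma) rested on NC-chow mouse 1, where they were 56.1 and 63.1 FPKM against at most 7.68 and 2.38 in the other 8 mice, and these near-identical copies can share fragments. NC-chow mouse 1 was also the NC-chow mouse with the highest ratio of Cebpb to Cebpa.

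Of 11 targets of NR5A2, PROX1 and ONECUT1, all tested, 8 were negative in FET-chow against NC-chow (median -1.04, after rescaling 7 and -0.64). At an unadjusted p under 0.05 in limma 1 was lower there, 3 were lower in IVF-chow against NC-chow, and 1 was higher and 1 lower in FET-chow against IVF-chow. Apom, a lipoprotein component, was an exception and was higher in FET-chow mice, with 0.454, 3.31 and 3.43 FPKM in NC-chow, 2.52, 23.3 and 4.66 in IVF-chow and 8.61, 9.84 and 4.07 in FET-chow mice. All FET-chow values of Apom lay above all NC-chow values, and the difference on the log2 scale was 1.42 (adjusted p = 0.461 in limma) and 1.94 after rescaling (adjusted p = 0.212 in limma). Abcg5, part of a sterol transporter, was 3.38, 21.3 and 14.3 FPKM in NC-chow, 1.29, 1.83 and 5.79 in IVF-chow and 4.82, 4.73 and 2.21 in FET-chow mice. In this list Cyp8b1, Pfkfb1 (-1.45, adjusted p = 0.445 in limma) and G6pc complete the named genes. In IVF-chow against NC-chow the medians were -0.62 for the HNF4A, -1.16 for the FOXA, -1.16 for the C/EBP and -0.97 for this last list, beside -0.25 over all genes. After rescaling they were -0.30, -0.82, -0.82 and -0.76, beside -0.07. In FET-chow against IVF-chow they were -0.59, -0.69, -0.44 and 0.00, beside -0.20, and after rescaling -0.34, -0.43, -0.23 and 0.17, beside 0.02. Fold changes of low genes are understated on log2(FPKM + 1), and the lists were not compared with genes of like abundance. The medians of the target lists in FET-chow against NC-chow lay below the -0.46 of all genes tested, as did that of the hepatocyte markers (-0.97, 8 of 11 negative, and -0.33 after rescaling), in lists that were put together with earlier results of these data known.

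The tissue was checked against markers of hepatocytes and of the other cells of the liver. All 11 matched hepatocyte markers were above 0 in all mice, led by Apoa2 and Alb, and their summed FPKM ranged from 20900 to 37800 in NC-chow, 6170 to 61900 in IVF-chow and 8480 to 30900 in FET-chow mice. On the coding-scaled level the ranges were 223000 to 249000, 157000 to 269000 and 187000 to 239000, and they overlapped. Cholangiocyte markers, of interest because bile ducts also express Foxa1, Foxa2 and Onecut1, summed to 12.8 to 22.9, 3.29 to 19.2 and 4.07 to 22.0 FPKM and to coding-scaled levels of 107 to 165, 83.4 to 106 and 89.7 to 181, so that on the latter scale all IVF-chow mice lay below all NC-chow mice. The list was led by Spp1 and Anxa4, with Cftr at 0 in all mice and 3 of 10 markers above 0 in all. The pancreas markers, a check because several members also work there, summed to at most 1.40 FPKM in any mouse.

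The 11 Kupffer and macrophage markers, led by Clec4f and C1qa, had a summed coding-scaled level of 280 to 326 in NC-chow, 230 to 467 in IVF-chow and 422 to 1120 in FET-chow mice, with 7 of 11 above 0 in all mice. The 10 stellate markers, led by Ecm1 and Dcn, had 175 to 257, 297 to 558 and 509 to 805, with 7 of 10 above 0 in all. In both lists the FET-chow mice lay above the NC-chow mice on this scale, and in the stellate list all IVF-chow mice did so too (median log2 fold change after rescaling 0.49 in IVF-chow and 0.54 in FET-chow against NC-chow). In FPKM the groups of both lists overlapped, with 26.2 to 48.5 in NC-chow and 19.1 to 102 in FET-chow mice for the Kupffer list and 23.1 to 40.3 and 35.0 to 73.5 for the stellate list. The 9 endothelial markers, led by Clec4g and Fcgr2b, had 81.5 to 109, 44.2 to 97.9 and 68.0 to 171 on the coding-scaled level, and the 11 blood markers, led by Hba-a1 and Hbb-bs, had 2430 to 9090, 1740 to 2260 and 3910 to 6300. No tested marker of any list passed the adjusted threshold in limma, and 1 (a cholangiocyte marker, lower in IVF-chow against NC-chow) had an unadjusted p under 0.05. The part of other cell types, and that of the lower depth of the FET-chow libraries, in the Foxa2 and Prox1 differences was not tested.

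The genes whose FPKM followed each member most closely over the 9 mice were listed by Pearson correlation of log2(FPKM + 1), as a description over mice that share library depth and makeup. For Hnf4a they were Romo1 (r = 0.990, n = 9), Serpinf1 (0.989) and Anapc13 (0.989), and after rescaling to the coding genes these were 0.227, 0.639 and 0.156. For Foxa2 they were Atp2a2 (0.972), Tcta (0.959) and Degs1 (0.955), and 0.812, 0.881 and 0.874 after rescaling. Prox1 was followed by Mdm4 (0.962), Marc1 (0.960) and Erbb3 (0.957), and Nr5a2 by Usp24 (0.916), Ncor1 (0.904) and Nde1 (0.856). For Cebpb they were Otc (0.981), Ido2 (0.980) and Cat (0.977), for Cebpa Man2b1 (0.986), Ubap2 (0.978) and Clasrp (0.977), and for Foxa3 Taf10 (0.981) and Ufm1 (0.973). Foxa1 was followed by Prkcsh (0.977), Stat2 (0.969) and Trappc3 (0.953), and Onecut1 by Faf1 (0.947), Akr1c19 (0.924) and Tfpt (0.921). Among the members themselves, the 36 pairs had a median r of 0.58 in FPKM and of 0.02 after rescaling, and 30 and 20 of the 36 were above 0.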

How the data were processed

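Liver RNA of 9 mice was sequenced on an Illumina Nova6000 system after TRIzol isolation. The authors deposited FPKM values per Ensembl gene and mouse. The submitters' processing notes name FastQC 0.11.5, STAR 2.5.3a, StringTie 1.3.1c and DESeq2 1.16.1 without their roles, and the genome build, annotation and strandedness are not given in the sources used here. Of the 55335 identifiers, 55154 matched GENCODE vM21 (GRCm38), which gave symbols and positions, and 181 did not. FPKM divides by all mapped fragments, so it moves with the mitochondrial and non-coding share of a library.

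The 6755 genes whose FPKM averaged 1 or more over the mice were compared after log2(FPKM + 1) by limma 3.58.1 in R 4.3.3, 3 groups in 1 model with a trended variance, two-sided, with Benjamini-Hochberg adjustment over all 6755 genes and a threshold of 0.05. A fold change on this scale understates that of low genes. Ranks within a library and the C/EBP ratio were compared by exact permutation tests in SciPy 1.17.1 and Python 3.11.15. The depth was estimated from the steps of low FPKM values, of which 57.1% to 66.2% lay on a step, and the depth and limma procedures were tested on simulated data. Alternatives tried were no filter, a pseudocount of 0.1, median-ratio scaling, quantile normalization, rescaling to nuclear protein-coding genes, only the groups compared, a replicate block, only the libraries with neighbouring S numbers, and each mouse left out.

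The members, the lists and the tests were chosen with earlier results of these data known. The rule for the members names 10 symbols, of which 1 is not reported here, and neither is 1 gene that falls under the correlation rule below. From each list of partners, factors, co-regulators and targets the text names the 5 tested genes with the largest absolute log2 difference between FET-chow and NC-chow mice, any gene that passed the threshold and, for each member, the 3 coding genes with the highest correlation. Marker lists are given by counts and summed levels, with the 2 highest genes of a list named. The 2 factors named as passing after rescaling also fall under the first part of this rule. Of the listed genes, Ddit3 and Tf did not match a single coding symbol.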

Additional observations from a re-analysis of the deposited data

How the results depend on the processing

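Alternatives that kept more than 1 mouse in each group left 0 members past the adjusted threshold in limma in each comparison. Their smallest adjusted p was 0.165 in limma. Of 288 log2 fold changes of members under the alternatives that can move them, 256 kept their direction and 32 reversed, over 13 of the 27 results, and none of the reversed values had passed the threshold. Those of Foxa2 and Prox1 in FET-chow against NC-chow and of Foxa2 in FET-chow against IVF-chow did not reverse. In FET-chow against NC-chow, median-ratio scaling gave 0.29 for Foxa3 and 0.09 for Nr5a2. Quantile normalization gave 0.15 for Foxa1, 0.21 for Foxa3, 0.20 for Onecut1 and 0.28 for Nr5a2. Rescaling gave 0.36 for Foxa3 and 0.14 for Nr5a2. With NC-chow mouse 1 as the only NC-chow mouse, values with no test, Foxa1 was 0.27, Cebpa 0.01, Onecut1 0.34 and Nr5a2 0.08. In IVF-chow against NC-chow, Hnf4a was 0.07 under both median-ratio scaling and quantile normalization, and against NC-chow mouse 1 alone Hnf4a was 0.14, Cebpa 0.75, Prox1 0.01 and Foxa2 -0.07. Foxa2, at 0.00 in that comparison, was -0.06 with a pseudocount of 0.1 and ran from -0.40 to 0.61 as 1 mouse at a time was left out. In FET-chow against IVF-chow, Cebpb was 0.03 under median-ratio scaling and 0.22 after rescaling. Leaving out 1 mouse at a time, the values in FET-chow against NC-chow ran from -0.78 to 0.03 for Foxa1 and from -0.55 to 0.17 for Foxa3, both positive without FET-chow mouse 4. In IVF-chow against NC-chow they ran from -0.80 to 0.27 for Hnf4a (positive without IVF-chow mouse 2) and from -0.48 to 1.14 for Foxa3 (negative without IVF-chow mouse 4). In FET-chow against IVF-chow they ran from -1.03 to 0.04 for Hnf4a and from -1.31 to 0.31 for Foxa3, both positive without IVF-chow mouse 4, and from -0.90 to 0.69 for Cebpb, positive without IVF-chow mouse 4 or FET-chow mouse 4. The difference in the Cebpb to Cebpa ratio ran from -0.23 to 1.01 in FET-chow against NC-chow (-0.12 without NC-chow mouse 6 and -0.23 without FET-chow mouse 2) and from -0.76 to 0.37 in IVF-chow against NC-chow (0.37 without NC-chow mouse 1 and 0.01 without IVF-chow mouse 2). In FET-chow against IVF-chow it ran from 0.03 without FET-chow mouse 2 to 1.07 without FET-chow mouse 4. The cause of these reversals was not tested. A pseudocount of 0.1 enlarged the log2 fold changes of members at low FPKM. Against NC-chow the FET-chow values became -2.91 for Foxa2, -2.12 for Prox1, -1.14 for Foxa1, -1.62 for Onecut1 and -0.37 for Nr5a2. Against IVF-chow they became -2.85 for Foxa2, -1.86 for Foxa1, -3.06 for Onecut1, -0.91 for Prox1 and 0.87 for Nr5a2. In IVF-chow against NC-chow the values became 1.45 for Onecut1, 0.72 for Foxa1, -1.24 for Nr5a2 and -1.21 for Prox1. The numbers 2, 3 and 4 occur in both the IVF-chow and the FET-chow group, but same-numbered mice did not deviate together (r of -0.13, 0.02 and -0.26, against 0.06 for different numbers). A replicate block for FET-chow against IVF-chow cannot move a log2 fold change in this balanced design (Foxa2 stayed at -1.60). With the block the unadjusted p of Foxa2 in limma was 0.0952, against 0.0217 in the main fit and 0.0639 with only these 2 groups fitted and no block. The members with an unadjusted p under 0.05 in limma were 0 with the block, 1 in the main fit and 0 with only these 2 groups. The fall from 1 to 0 is therefore not put down to the block. Shares over all genes are not given for the fits of these groups alone, so their counts have no background. Omitting the filter or the third group cannot move a log2 fold change either. In FET-chow libraries Foxa1, Foxa2 and Onecut1 rested on an estimated 0 to 29.1 fragments.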
